A study of Mus musculus with 6 samples.

Results

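Microglia depend on signals of the colony-stimulating factor (CSF) system, and 5 of its genes were described here in microglia sorted by their load of lipid droplets. They were the ligand gene Csf1 and the receptor genes Csf1r, Csf2ra, Csf2rb and Csf3r, taken by symbol, and all 5 were found among the 15912 genes of the deposited table. The samples were hippocampal microglia of male C57BL/6 mice, 3 months old, that had received lipopolysaccharide (LPS, a bacterial product that provokes inflammation) at 1 mg/kg into the abdomen over 4 days, with tissue taken 24 h after the last dose. Every library came from LPS-treated mice, and saline-treated controls were not analysed here. Each library held the pooled hippocampi of 2 mice, from which about 10000 live CD11b+ CD45lo cells were sorted into a BODIPY-low gate (few droplets) or a BODIPY-high gate (many droplets), BODIPY being a dye of neutral lipid. Each gate had 3 libraries, numbered 1 to 3, of 34899413 to 39220494 reads.

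CSF1 is a secreted or membrane-bound cytokine, and its receptor CSF1R is a tyrosine kinase on which microglia depend for survival and renewal. IL-34 is the other ligand of CSF1R and comes mainly from neurons in the forebrain. CSF2 (GM-CSF) binds a receptor of a specific alpha chain, Csf2ra, and a common beta chain, Csf2rb, which the IL-3 and IL-5 receptors share and which signals through JAK2 and STAT5. CSF3 (G-CSF) acts through Csf3r, best known from neutrophils.

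The 6 libraries carried the genes that define microglia, with P2ry12 at 134430 to 249230 normalized counts and Tmem119 at 170161 to 288932 (a normalized count is a gene's read count divided by a size factor of its library). Of a list of 14 microglial genes, limma and edgeR called 0, DESeq2 2 and limma with the library number as a block 2 (Olfml3 and Sparc, both lower). At unadjusted p under 0.05 by limma, 2 were lower, beside 2.27% of all genes tested. The gates did not overlap for 4 in the lower direction, beside 5.95% of all genes tested, and 13 of 14 log2 differences were negative (median -0.21). Markers of other cells were present as well and differed between the gates. Of 12 markers of border-associated macrophages, the macrophages of meninges and vessels, 9 were called higher in BODIPY-high libraries, and their summed level was 17576 to 24530 normalized counts among BODIPY-low libraries and 44117 to 123807 among BODIPY-high libraries. All 7 markers of the choroid plexus epithelium were called higher (summed 306 to 2292 against 39581 to 51909), and one of them, Aqp1, had under 10 normalized counts in every BODIPY-low library. Of 8 tested astrocyte markers 3 were called higher, and of 7 oligodendrocyte markers 2. Of 9 tested neutrophil and 7 tested monocyte markers, limma called 0 in either direction. At unadjusted p under 0.05 by limma, 3 and 3 were higher, beside 8.03% of all genes tested. By edgeR 0 and 0 were called, and by DESeq2 1 and 0. With the block, limma called 2 neutrophil markers (Retnlg and Mmp9) higher, and 11 of the 12 border-associated macrophage markers. In bulk RNA of sorted cells, fewer cells of a type cannot be told apart from less RNA per cell.

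None of the 5 CSF genes passed the test for a difference between BODIPY-low and BODIPY-high microglia. By limma on log2(normalized count + 1), with Benjamini-Hochberg adjustment over 12767 genes and a call at adjusted p under 0.05, 0 of 5 were called higher and 0 lower, and at an unadjusted p under 0.05 there were 0 as well in this fit, which leaves the library numbers out. Of all genes tested, 2.03% were called higher and 0.0235% lower, and 8.03% and 2.27% had such an unadjusted p. The median log2 difference of the 5 genes, BODIPY-high minus BODIPY-low, was -0.0033, and that of all genes tested was -0.0043. For no CSF gene did the gates fail to overlap, while they did not overlap for 10.4% of all genes in the higher and 5.95% in the lower direction. On whole reads, edgeR called 0 of the 5 (1.74% of all genes higher, 0.00783% lower) and DESeq2 0 of the 5 (3.63% higher, 0.251% lower).

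**Figure D1:**
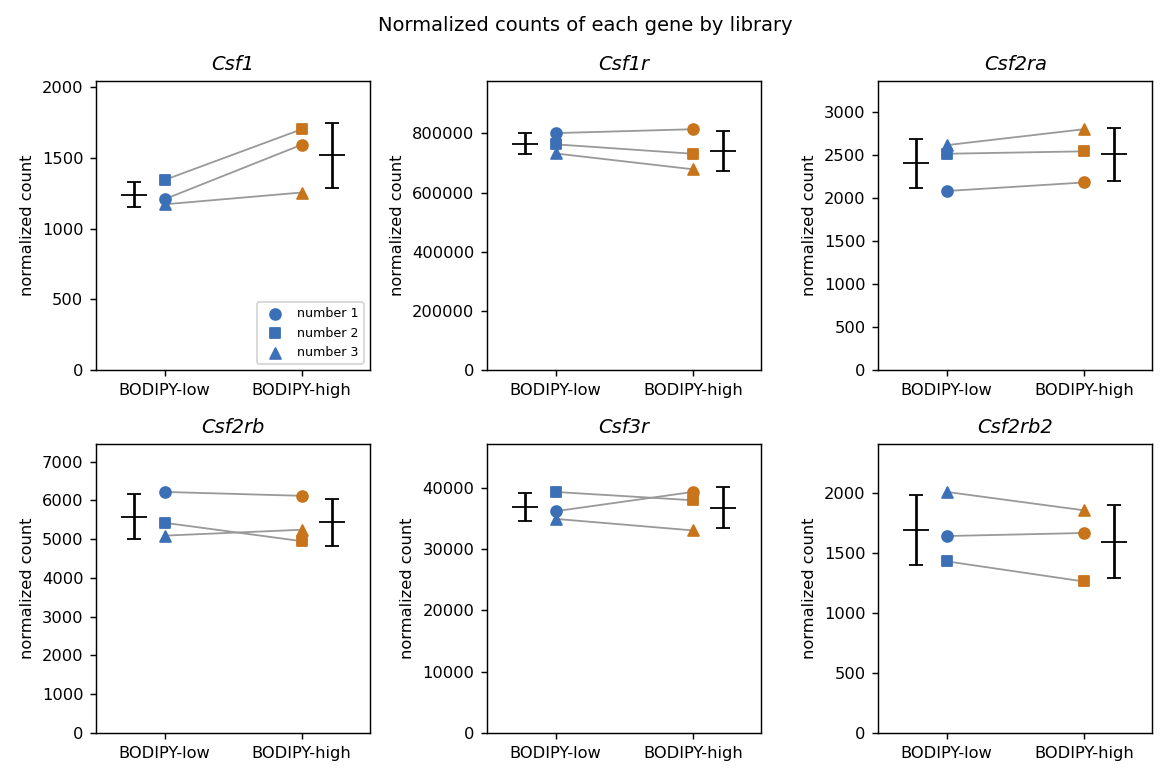
Normalized counts (vertical axes, from 0) of Csf1, Csf1r, Csf2ra, Csf2rb, Csf3r and the related Csf2rb2 in BODIPY-low (blue) and BODIPY-high (orange) libraries, with grey lines joining libraries of the same number and black marks giving the mean and SD of 3 libraries. The gates overlap in all 6 panels, and Csf1 and Csf2ra are higher in BODIPY-high in 3 of 3 pairs, as are 20.7% of all genes tested.

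Csf1, the ligand, showed the largest difference of the 5. The gene lies on the minus strand of chromosome 3 (107741048 to 107760469, GRCm38, the assembly of mm10) and overlaps no other annotated gene. BODIPY-low libraries 1, 2 and 3 had 1207, 1343 and 1171 normalized counts, and BODIPY-high libraries 1, 2 and 3 had 1592, 1701 and 1254. The high gate was above the low gate in libraries 1 and 2, while BODIPY-high library 3 lay within the range of the low gate. The means were 1240.1 ± 90.6 and 1516 ± 233 (SD, n = 3 per gate), a log2 difference of 0.28 ± 0.14 (SE) with an adjusted p of 0.566 by limma. Its 95% interval ran from 0.974-fold to 1.51-fold. Csf1 was higher in 3 of 3 pairs of the same number, as were 20.7% of all genes tested, by 0.40, 0.34 and 0.099 on the log2 scale for pairs 1, 2 and 3. The third pair, with the smallest step in Csf1, was the one whose BODIPY-high library held the most border-associated macrophage markers (123807 normalized counts, against 44117 and 49246 in BODIPY-high libraries 1 and 2), and the part of those cells in Csf1 was not tested.

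Csf1r, the receptor tyrosine kinase for CSF1 and IL-34, was the most abundant of the 5 and nearly level between the gates. It is a gene of chromosome 18 (61100598 to 61132149, plus strand). BODIPY-low libraries 1, 2 and 3 had 800985, 762978 and 732128 normalized counts, and BODIPY-high libraries 1, 2 and 3 had 814012, 731155 and 678799. The highest and the lowest value were both in the high gate, so the low gate fell inside the range of the high gate. The log2 difference was -0.049 ± 0.18 (SE, limma adjusted p = 0.967), with a 95% interval of 0.733-fold to 1.27-fold. Csf1r alone took 1.88 to 2.16% of the reads of a library. The gene overlaps Hmgxb3 on the opposite strand, and the library kits keep no strand, so reads of the overlap cannot be assigned by strand. Hmgxb3 had 1987 to 2386 normalized counts, far below Csf1r.

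Csf3r, the G-CSF receptor, was level between the gates. The gene lies on the plus strand of chromosome 4 (126024550 to 126044440). BODIPY-low libraries 1, 2 and 3 had 36155, 39292 and 34902 normalized counts, and BODIPY-high libraries 1, 2 and 3 had 39299.8, 37944 and 33025. The means of 36783 ± 2261 and 36756 ± 3302 differed by less than either SD (log2 difference -0.0033 ± 0.10, SE; limma adjusted p = 0.996). The 95% interval of 0.847-fold to 1.18-fold was the narrowest of the 5. Neutrophil markers varied more between libraries. Their summed level over 9 genes was 49912, 149032 and 152988 normalized counts in BODIPY-low libraries 1, 2 and 3 and 63410, 95526 and 243809 in BODIPY-high libraries 1, 2 and 3. BODIPY-high library 3 thus had the highest neutrophil total and the lowest Csf3r, and the part of neutrophils in Csf3r was not tested.

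Csf2ra, the alpha chain of the GM-CSF receptor, differed more between library numbers than between gates. The gene lies on the minus strand of chromosome 19 (61223957 to 61228429). BODIPY-low libraries 1, 2 and 3 had 2086, 2519 and 2620 normalized counts, and BODIPY-high libraries 1, 2 and 3 had 2185, 2548 and 2805. Both libraries of number 1 were the lowest and both of number 3 the highest, so the gates overlapped almost in full. The difference between gates was 0.061 ± 0.13 (SE, log2; limma adjusted p = 0.937; 95% interval 0.849-fold to 1.28-fold), while the means of the 3 pairs spanned 0.34. Within pairs the high gate was above the low gate by 0.067, 0.016 and 0.099, and 20.7% of all genes tested were higher in 3 of 3 pairs. The summed level of 8 monocyte markers was also lowest in the libraries of number 1 (10499 for BODIPY-low and 10128 for BODIPY-high) and highest in BODIPY-high library 3 (33290.5), against 21518 to 25506 in the other 3 libraries. Their part in the level of Csf2ra was not tested.

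Csf2rb, the beta chain that pairs with Csf2ra, was highest in the libraries of number 1, where Csf2ra was lowest. BODIPY-low libraries 1, 2 and 3 had 6216, 5420.4 and 5089 normalized counts, and BODIPY-high libraries 1, 2 and 3 had 6116, 4947 and 5241. The gates overlapped, with the lowest value in BODIPY-high library 2. The log2 difference was -0.038 ± 0.12 (SE, limma adjusted p = 0.961), with a 95% interval of 0.813-fold to 1.17-fold. Per kb of exon, the ratio of Csf2rb to Csf2ra was 1.18, 0.849 and 0.766 in BODIPY-low libraries 1, 2 and 3 and 1.10, 0.766 and 0.737 in BODIPY-high libraries 1, 2 and 3. The ratio was thus above 1 in both libraries of number 1 and below it in the other 4 libraries. Where it crosses 1 depends on the length used. With the longest transcript as length, mean levels per kb of Csf2rb and Csf2ra were 1138 and 1058 in BODIPY-low and 1109 and 1103 in BODIPY-high libraries.

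The values of Csf2rb carry a further uncertainty, since the mouse has a near-identical copy, Csf2rb2, a beta chain specific to IL-3. Csf2rb lies on the plus strand of chromosome 15 (78325752 to 78353847) and Csf2rb2 on the minus strand (78282507 to 78305721), 20030 bases apart. Over 2631 aligned coding bases the genes shared 95.2%, and 11.0% of the 100-base windows of the Csf2rb coding sequence, the length of a read here, occurred without change in Csf2rb2. The stretch of the coding sequences without gaps that differs most, with 17 of 100 bases unlike (capitals), shows where a read can be assigned. Coding positions count from 1 at the first base of the start codon, and both sequences come from GENCODE release M21 transcripts.
Csf2rb, coding positions 314 to 413: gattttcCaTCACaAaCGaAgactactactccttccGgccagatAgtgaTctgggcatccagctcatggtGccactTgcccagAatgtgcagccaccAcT
Csf2rb2, coding positions 317 to 416: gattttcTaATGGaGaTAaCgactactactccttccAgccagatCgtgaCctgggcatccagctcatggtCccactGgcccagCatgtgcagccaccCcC
The longest run without a difference, shown as the part where a read fits both genes, was 242 bases (coding positions 2083 to 2324 of each gene).
Csf2rb and Csf2rb2: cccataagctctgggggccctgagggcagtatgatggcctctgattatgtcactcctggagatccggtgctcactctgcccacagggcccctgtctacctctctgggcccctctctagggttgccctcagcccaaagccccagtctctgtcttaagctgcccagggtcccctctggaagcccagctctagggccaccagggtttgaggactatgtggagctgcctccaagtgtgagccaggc
Csf2rb2 had 1641, 1430.4 and 2009 normalized counts in BODIPY-low libraries 1, 2 and 3 and 1667, 1262 and 1856 in BODIPY-high libraries 1, 2 and 3. It also overlapped between gates (log2 difference -0.091 ± 0.17, SE; limma adjusted p = 0.927). With both genes summed, a choice made after the data were seen, the log2 difference was -0.052 and the limma adjusted p 0.934, so the sum was not called either.

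Per kb of merged exon, which allows levels to be compared between genes, the order was the same in both gates. Csf1r had 132553 ± 5973 normalized counts per kb in BODIPY-low and 128389.7 ± 11808 in BODIPY-high libraries (SD, n = 3 per gate), and ranked 6 to 8 among 15251 genes with a length. Csf3r followed with 10192 ± 627 and 10185 ± 915, which is 13.01-fold and 12.61-fold under Csf1r. Csf2ra had 839 ± 98.9 and 875 ± 108, and Csf2rb 766 ± 79.6 and 747 ± 83.6. These 2 chains overlapped in both gates, and their order turned with the length of the longest transcript in place of merged exons, so they do not differ beyond their spread. Csf2rb2 had 357 ± 61.8 and 336 ± 64.0, and Csf1 was lowest with 235 ± 17.2 and 287 ± 44.1. Csf2rb2 and Csf1 overlapped in the high gate and not in the low gate. With the longest transcript as length, Csf1 had 297 in the low and 363 in the high gate, and Csf2rb2 357 and 336. Their order thus turned in the high gate.

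**Figure D2:**
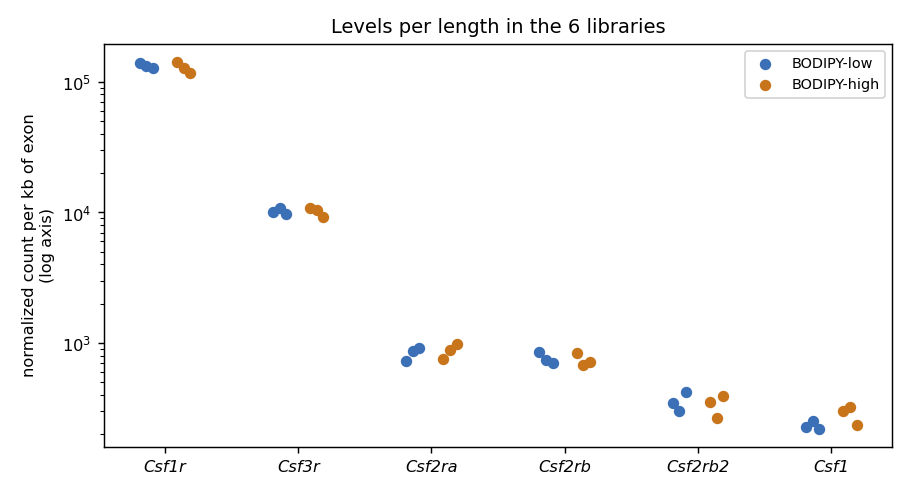
Normalized counts per kb of merged exon (vertical log axis) of the CSF genes and Csf2rb2, with 1 point per library, BODIPY-low in blue and BODIPY-high in orange. Csf1r lies at 117561 or above, Csf3r between 9151 and 10889, and the other genes at 977 or below.

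In Csf1, Csf1r and Csf2ra the library numbers ranked in the same order in both gates, while in Csf2rb and Csf3r they did not. The pair means of Csf2ra spanned 0.34 on the log2 scale, those of Csf1 0.32, Csf2rb 0.26, Csf1r 0.20 and Csf3r 0.19. For the 4 receptor genes the span was larger than the size of the gate difference, which was at most 0.061, while for Csf1 it was of similar size to the gate difference of 0.28. The span is a range over all pair means and so is not a like measure to the gate difference. A larger span therefore does not by itself show a likeness within pairs. A fit with the library number as a block, which removes deviations shared by libraries of the same number, also called 0 of the 5 genes. In that fit 4.37% of all genes were called higher and 0.462% lower. Csf1 came nearest, with an unadjusted p of 0.0245 by limma and an adjusted p of 0.193. The 95% interval of its log2 difference in this fit ran from 0.044 to 0.52 and did not include 0, while those of the 4 receptor genes did. In the higher direction 1 of 5 genes thus had an unadjusted p under 0.05, and 0 in the lower, beside 11.6% and 6.28% of all genes.

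**Figure D3:**
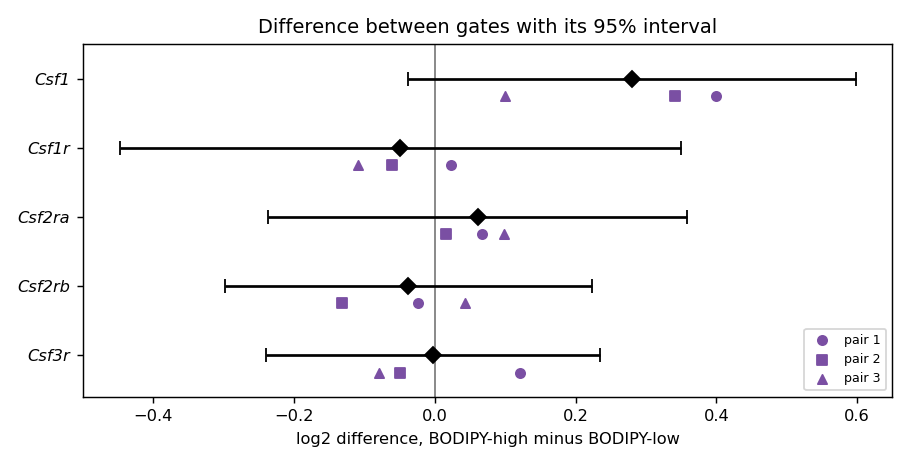
Log2 difference, BODIPY-high minus BODIPY-low (horizontal axis), of the 5 CSF genes, with black diamonds and bars for the limma estimate and its 95% interval and purple marks for each pair of libraries of the same number. All 5 intervals, from the fit without the block, include 0, and the pair values of Csf1 run from 0.099 to 0.40.

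A promoter sequence from RefSeq (GRCm38.p6, a window of 300 bases around the start) was at hand for 3 of the 5 genes, Csf1, Csf2ra and Csf3r. They are shown because PU.1, the ETS-family factor that sets the macrophage lineage, is known to act on CSF receptor genes and binds purine-rich sites with a GGAA core. The motif GAGGAAG was searched on both strands. It was present in the windows of Csf2ra and Csf3r and absent from that of Csf1, and 13.6% of the 32851 promoters of the same length held it. In Csf2ra 2 copies overlap by 1 letter just before the RefSeq start. The GENCODE gene given above begins further upstream, at 61228429, within the first copy. In Csf3r the motif lies before the RefSeq start too, but after the GENCODE start at 126024550, so inside the annotated gene. A match of letters does not show that the factor binds. Capitals mark the motif.
Csf2ra, chr19:61228369-61228668, minus strand: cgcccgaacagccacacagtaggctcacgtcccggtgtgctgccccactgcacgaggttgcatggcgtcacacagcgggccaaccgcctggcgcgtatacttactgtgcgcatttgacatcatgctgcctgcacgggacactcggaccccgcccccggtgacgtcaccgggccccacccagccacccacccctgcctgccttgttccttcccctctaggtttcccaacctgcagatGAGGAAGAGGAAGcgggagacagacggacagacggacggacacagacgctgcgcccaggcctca
Csf3r, chr4:126024409-126024708, plus strand: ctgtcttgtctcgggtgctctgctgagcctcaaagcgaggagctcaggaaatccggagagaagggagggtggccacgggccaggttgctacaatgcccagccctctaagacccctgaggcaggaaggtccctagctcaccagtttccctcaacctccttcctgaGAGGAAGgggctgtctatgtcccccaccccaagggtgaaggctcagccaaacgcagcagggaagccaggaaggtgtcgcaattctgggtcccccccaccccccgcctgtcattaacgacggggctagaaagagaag
Spi1, which encodes PU.1, had 12228 to 13561 normalized counts in BODIPY-low and 10719.7 to 13445 in BODIPY-high libraries (limma adjusted p = 0.846).

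Other genes of these pathways were taken from 7 lists of 92 genes, of which 83 were tested. By limma, 1 was called higher and 0 lower, that is 1 of 83 beside 2.03% of all genes. Their median log2 difference was 0.015. The gates did not overlap for 8 of the 83 in the higher and 1 in the lower direction, against 10.4% and 5.95% of all genes, so neither count was above the share over all genes.

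Other ligands and receptors of the family did not pass the test. Il34 had 0 reads in the 3 BODIPY-low libraries and in BODIPY-high library 1, and 6 reads in BODIPY-high libraries 2 and 3 together. A count of 0 allows up to 3 reads, and 3 reads made 2.76 to 3.29 normalized counts. Csf2, Csf3, Il3, Il5 and Il5ra were not among the genes of the deposited table and so were not analysed here. Il3ra, the alpha chain of the IL-3 receptor, had 23.2 to 32.9 normalized counts in BODIPY-low libraries and 18.02, 47.9 and 103.9 in BODIPY-high libraries 1, 2 and 3 (limma adjusted p = 0.819). The stem cell factor gene Kitl (adjusted p = 0.785) and its receptor gene Kit (0.822), a relative of Csf1r, did not pass limma either. Of the 6 tested members of the list, limma, edgeR and DESeq2 called 0, and 0 reached an unadjusted p under 0.05.

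Adaptors and kinases downstream of the receptors had differences on both sides of 0. Of 23 tested, 0 were called by limma, edgeR or DESeq2, and the median log2 difference was 0.012. At an unadjusted p under 0.05, 0 were higher and 1 lower, beside 8.03% and 2.27% of all genes. That gene was Pik3r1, the regulatory subunit of PI3 kinase (3775 ± 501 against 3063 ± 317 normalized counts, log2 difference -0.30, limma adjusted p = 0.458). Tyrobp (DAP12), the adaptor that links CSF1R and TREM2 to SYK, had 27685 ± 6330 and 23143 ± 2389 (adjusted p = 0.719). The kinase gene Akt1 had a log2 difference of 0.16 (adjusted p = 0.716).

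JAK and STAT genes, which carry the signals of the CSF2 and CSF3 receptors, had mostly positive differences, none of which passed the test. Of 8 tested, 7 had a positive log2 difference, the median was 0.16, and limma, edgeR and DESeq2 called 0. At an unadjusted p under 0.05, 3 were higher and 0 lower, against 8.03% and 2.27% of all genes. Jak3, a kinase of the receptors that use the common gamma chain, had 3284, 3241 and 3325 normalized counts in BODIPY-low libraries 1, 2 and 3 and 3629, 4081 and 4109.8 in BODIPY-high libraries 1, 2 and 3, without overlap (log2 difference 0.26 ± 0.09, SE; limma adjusted p = 0.317). Jak1, used by interferon and gamma-chain receptors, did not overlap between gates either (0.19 ± 0.08, adjusted p = 0.483). Stat5b, a direct effector of the beta chain, had -0.0021 (adjusted p = 0.997) and Stat5a 0.15 (adjusted p = 0.838).

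Negative regulators had a median log2 difference of -0.0097 over 14 tested genes, with 0 called by limma, 0 by edgeR and 1 by DESeq2. At an unadjusted p under 0.05, 2 were higher and 0 lower, beside 8.03% and 2.27% of all genes. The gene of smallest p was Dok2, a docking protein that restrains kinase signals in myeloid cells. It had 53.8, 20.6 and 64.2 normalized counts in BODIPY-low libraries 1, 2 and 3 and 121, 238 and 299.8 in BODIPY-high libraries 1, 2 and 3. The gates did not overlap, the ratio of the means was 4.76, and the log2 difference was 2.28 ± 0.50 (SE, limma adjusted p = 0.0632). With the replicate block Dok2 passed (limma adjusted p = 0.0117), where 4.37% of all genes were called higher. Cish, a target and inhibitor of STAT5, had 30.7 ± 5.49 and 63.5 ± 14.3 normalized counts without overlap (log2 difference 1.01, limma adjusted p = 0.389). Sla, the Src-like adaptor, had -0.16 (adjusted p = 0.658).

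Proteases that release CSF1 or CSF1R from the membrane, or cleave what is left, had 0 of 9 called by limma, edgeR or DESeq2 and a median log2 difference of -0.047. At an unadjusted p under 0.05, 1 was higher and 0 lower, beside 8.03% and 2.27% of all genes. Rhbdf1 (iRhom1), a partner of the sheddase ADAM17, had 716 ± 100.4 and 982 ± 45.8 normalized counts without overlap (log2 difference 0.46, limma adjusted p = 0.223). The gamma-secretase subunit genes Aph1a and Psenen had -0.31 and -0.26 (adjusted p = 0.607 and 0.73).

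Transcription factors known from the promoters of CSF receptor genes had 8 of 11 differences below 0 and 0 called by limma, edgeR or DESeq2. Their median was -0.13, beside -0.0043 for all genes tested. At an unadjusted p under 0.05, 1 was higher and 0 lower, beside 8.03% and 2.27% of all genes. Egr2, an immediate early factor, had 199 ± 17.0 and 304 ± 47.8 normalized counts without overlap (adjusted p = 0.322). Runx1, a partner of PU.1 at the Csf1r enhancer, had 4797 ± 394 and 4330.3 ± 97.8 without overlap (adjusted p = 0.702), and Sp1 had -0.38 (adjusted p = 0.644).

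**Figure D4:**
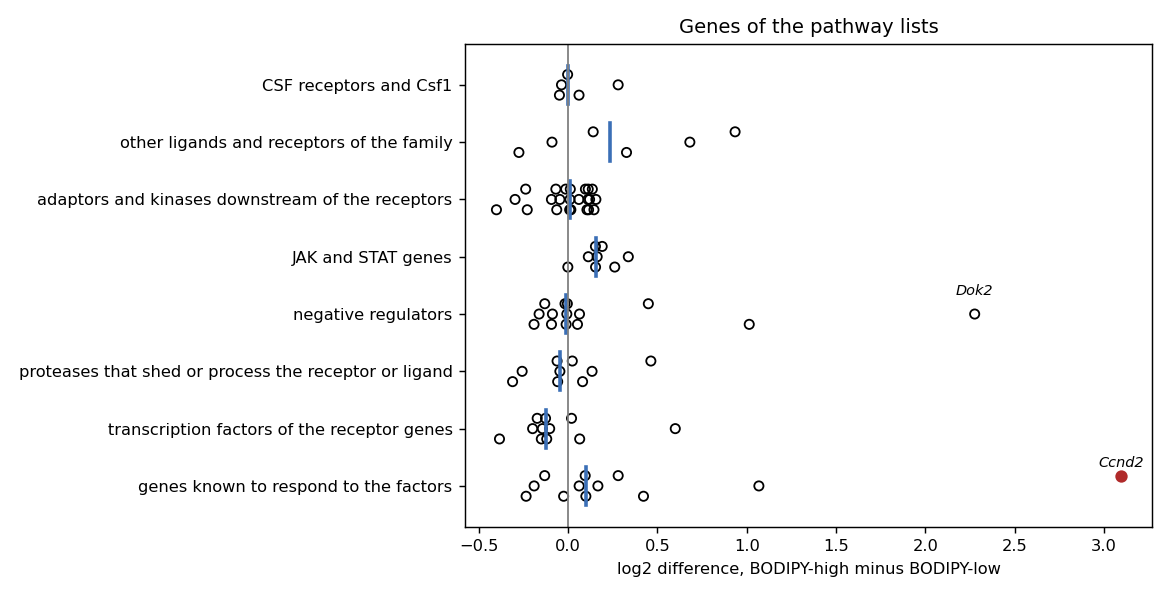
Log2 difference, BODIPY-high minus BODIPY-low (horizontal axis), of each tested gene of the lists, with blue bars for the list medians, open circles for genes that did not pass limma and a filled red circle for the gene that did. Ccnd2 (3.10) and Dok2 (2.28) stand apart, and most other genes lie within 0.5 of 0.

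Of 12 tested genes known to respond to CSF1 or GM-CSF, Ccnd2 was the 1 gene that passed. Ccnd2, cyclin D2, drives cells from G1 towards S phase. It rose from 9.87, 15.5 and 31.6 normalized counts in BODIPY-low libraries 1, 2 and 3 to 114, 158 and 199.6 in BODIPY-high libraries 1, 2 and 3, with no overlap. The ratio of the means was 8.28 and the log2 difference 3.10 ± 0.48 (SE, limma adjusted p = 0.0168). It no longer passed without BODIPY-low library 2 (limma adjusted p = 0.0618), BODIPY-high library 2 (0.114) or BODIPY-high library 3 (0.0915). The same libraries differed in border-associated macrophage and choroid plexus markers as given above, and the part of those cells in Ccnd2 and Dok2 was not tested. Ccnd1, the cyclin that CSF1 is best known to induce, had 907 ± 517 and 682 ± 152 (adjusted p = 0.92). Itgax (CD11c), which GM-CSF induces in myeloid cells, had 1187 ± 128 and 1590.4 ± 165 without overlap (log2 difference 0.42, limma adjusted p = 0.222). It passed with the replicate block (limma adjusted p = 0.0498). The chemokine gene Ccl22 had 16.9 ± 4.35 and 41.6 ± 26.6 (adjusted p = 0.626).

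The genes whose log2 values followed each CSF gene most closely over the 6 libraries were looked up among 9706 tested genes with a mean of at least 100 normalized counts. The coefficients describe the 6 libraries, which come in pairs of the same number, and each is among the highest of 9706. For Csf1 they were the vesicle fusion gene Vps41 (Pearson r = 0.986), Eri3 (0.984) and the methylmalonyl-CoA mutase gene Mut (0.979). For Csf1r they were the ribosome maturation kinase gene Riok2 (0.996), Akr1b10 (0.994) and the cell death gene Bid (0.99). For Csf2ra they were the prefoldin gene Pfdn6 (0.99), the interferon-induced gene Ifi27l2a (0.99) and the cell cycle kinase gene Cdk4 (0.989). For Csf2rb they were Naprt, an NAD synthesis gene (0.993), Tulp4 (0.993) and Magi3 (0.984), and for Csf3r Pln (0.994), Extl2 (0.988) and Pbxip1 (0.987). Vps41 had its highest values in BODIPY-high libraries 1 and 2 (4929 and 5111 normalized counts, against 4164 to 4415 in the other 4 libraries), as Csf1 did.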

How the data were processed

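RNA of sorted microglia was sequenced in 6 libraries, 3 per BODIPY gate. Per the series' design text, the authors mapped the reads on mm10 by STAR 2.5.3a, which also made the gene counts, and ran DESeq2, while the submitters' processing notes list mm9 as well. Gene models and strand setting are not given in the sources used here. Deposited values are a signal, namely read counts that were scaled by the authors with 1 size factor per library. All were whole multiples of 1 step per library (0.920 to 1.10, and 1.00 and 0.997 in BODIPY-high libraries 1 and 2) within 0.05 of a read (100% of values), which gave 34899413 to 39220494 whole reads. The floor of 3 reads covers counting error only, since PCR copies are not independent molecules, while the 95% intervals are those of limma and rest on the spread between libraries. The chi-square per degree of freedom between libraries was at least 26.3, so each counted as 1 sample. The labels do not say that samples within a gate had separate animals, so a p-value here covers only sample-to-sample spread, which may be technical.

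Gates were compared by limma 3.58.1 with a mean-variance trend in R 4.3.3 (two-sided), the gate being the only term, on log2(normalized count + 1) of 12767 genes with at least 10 normalized counts in at least 3 libraries, with Benjamini-Hochberg adjustment. On that scale the change of weakly expressed genes comes out too small. The method was checked on simulated counts. Alternatives were other pseudocounts, no filter, TMM scaling, the replicate block, each library left out, and edgeR 4.0.16 and DESeq2 1.42.0 on whole reads. The numbers pair the libraries: deviations from the gate means correlated at 0.244 to 0.363 across genes for libraries of the same number and at -0.255 to -0.0951 for others. Deviations within a gate cancel out, so the negative values follow on balance from the positive ones and are no separate support. Levels per kb used merged exons of GENCODE release M21, which held 15251 of the symbols. Of the table's names, 23 had been turned into dates and none of these is named. The CSF genes and all lists were chosen with earlier results of these data known. Named genes were the CSF genes, up to 3 genes of smallest p per pathway list and the 3 most alike genes of each CSF gene. Il34, Csf2, Csf3, Csf2rb2 and Tyrobp were always named. The result of 1 gene that this rule names is not reported here. Ccnd1, Stat5a, Stat5b, Spi1, Hmgxb3 and marker genes were named after their values were seen.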

Additional observations from a re-analysis of the deposited data

How the results depend on the processing

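The 5 CSF genes passed the threshold in 0 of 66 values over 14 alternatives, with adjusted p from 0.193 upward. Csf1 kept its direction throughout (log2 difference 0.19 to 0.41 with 1 library left out). The other 4 differences were so near 0 that leaving out 1 library turned their sign: Csf1r ran from -0.12 to 0.012, Csf2ra from -0.040 to 0.16, Csf2rb from -0.13 to 0.043 and Csf3r from -0.054 to 0.072. With 1 library left out, 15 to 271 genes of all tested were called higher and 0 to 2 lower, against 259 and 3 with all libraries. The count of higher genes was 169, 15 and 59 when number 1, 2 or 3 of the BODIPY-high gate was left out, and 135 and 117 for numbers 1 and 2 of the BODIPY-low gate. Of the pathway genes 0 to 1 were then called higher. The replicate block gave 558 genes higher and 59 lower, with 3 pathway genes higher (Ccnd2, Dok2 and Itgax), and changed no other call among the CSF and pathway genes. DESeq2 gave 464 higher and 32 lower with 2 pathway genes, edgeR 1 lower, and a pseudocount of 10 gave 2 pathway genes. The cause of these shifts was not tested. With the longest transcript as length, levels per kb in the low and high gate were 297 and 363 for Csf1, 162809 and 157695 for Csf1r, 1058 and 1103 for Csf2ra, and 1138 and 1109 for Csf2rb.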

Other observations

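The balance of receptor and ligand was looked at after the values were seen. The ratio of Csf1r to Csf1 per kb of exon was 607, 519.7 and 572 in BODIPY-low libraries 1, 2 and 3 and 468, 393 and 495 in BODIPY-high libraries 1, 2 and 3. All 3 BODIPY-high libraries lay below all 3 BODIPY-low libraries, although neither gene alone separated the gates. On normalized counts, the log2 ratio was lower by 0.33 in the high gate (9.27 ± 0.11 in BODIPY-low and 8.94 ± 0.17 in BODIPY-high libraries, SD, n = 3), and the difference was -0.40 to -0.23 with any 1 library left out. The ratio was chosen because it separated the gates, so no test is given. The separation and the values with 1 library left out are therefore no support for a shift between gates. How many other ratios of genes separate the gates was not counted. The ratio of Csf1r to Csf3r showed no such separation, at 12.1 to 13.8 in BODIPY-low and 12.04 to 12.9 in BODIPY-high libraries.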
